A study of Caenorhabditis elegans with 6 samples.

Results

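The short-chain dehydrogenases described here were all genes in the counts whose WormBase symbol is dhs or stdh followed by a number, 34 of the 46748 features counted. They comprised 30 dhs genes and 4 stdh genes, and the annotation gives all 34 as protein coding. RNA was sequenced from whole *Caenorhabditis elegans* hermaphrodites of the wild-type laboratory strain N2, aged 5 days. Of the 6 libraries, 3 carry the perturbation label Y6B3B.9, the name of a gene, and 3 carry the label L4440, the name of the empty plasmid that commonly serves as control in RNA interference by feeding bacteria. The labels do not say whether the perturbation lowers or raises Y6B3B.9, and nothing in them says that the libraries came from separate cultures, so the p-values measure the spread between these libraries, which may be technical. The comparison addresses how the transcript levels of these enzymes differ between worms with either label.

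Short-chain dehydrogenases/reductases are enzymes that move hydride between NAD(H) or NADP(H) and an alcohol or ketone group on a small molecule. In *C. elegans* their known substrates include sterol precursors of hormones, the acyl chains of fats and pheromones, and sugars. Some members work in the peroxisome and some on lipid droplets, and the intestine, the main site of fat storage in the worm, is a tissue in which several of them are known. Most dhs genes are named from sequence alone, and no role is given below for those.

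The libraries held between 23103541 and 32012257 reads in genes, and 14265 genes had enough reads to be tested. A gene is called here when its adjusted p (edgeR quasi-likelihood test, Benjamini-Hochberg over all tested genes) is under 0.05. By that rule 84.1% of all tested genes were called, 46.4% higher and 37.7% lower with the label Y6B3B.9. Y6B3B.9 itself (WBGene00012393) had 1057, 1211 and 969 reads with the label Y6B3B.9 but 578, 557 and 666 with the label L4440, so it was higher under its own label (log2 change 0.65, SE 0.074, edgeR adjusted p = 1.26e-06). An exact two-sided permutation test of its CPM gave p = 0.1, the smallest that 3 libraries against 3 allow. Because of this, groups are named below by their labels only. Markers of other tissues also differed between the labels. All 15 germline and oocyte markers were lower with the label Y6B3B.9, with a summed level of 6323 to 6489 CPM against 14563 to 15423 CPM. Of 11 intestine markers 8 were higher and 1 was lower, with a summed level of 4110 to 4498 CPM against 2241 to 2339 CPM. Most of that sum came from asp-6 (mean 2694 against 1403 CPM) and asp-1 (789 against 518 CPM). No listed marker was at 0 reads, the part of these shifts in the results below was not tested, and in RNA of whole worms fewer cells of a type and less RNA per cell cannot be told apart.

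Of the 34 members 32 were tested, and more of them were higher than lower in the libraries labelled Y6B3B.9. There were 17 called higher, 53.1% of those tested, against 46.4% of all tested genes. There were 6 called lower, 18.8%, against 37.7% of all tested genes, and 9 were not called. Changes of at least 2-fold were found for 8 members upward, where all tested genes give 23.6%, and for 2 members downward, where all tested genes give 10.2%. The 17 and the 8 both include dhs-4, which passed the read filter only through libraries labelled Y6B3B.9. The values of the 3 libraries with one label lay wholly apart from those with the other for 24 of 32 members (75%), compared with 85.4% of all tested genes. The median log2 change of the tested members was 0.58, with quartiles at -0.15 and 1.00, while that of all tested genes was 0.22, with quartiles at -0.54 and 0.96. No test was made of the members as a set, since they were selected with results of these data in view.

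The balance of higher and lower members depended on how libraries were scaled, and that of all tested genes moved with it. The main scaling was TMM, which sets a factor per library on the assumption that most genes do not change. That assumption may not hold here, since 84.1% of all tested genes were called and their median log2 change was 0.22. With TMM 73.9% of the called members were higher, against 55.2% of all called genes. With the size factors of DESeq2 the called members were 17 higher and 10 lower, 63.0% higher against 49.7% of all called genes, and the median of all tested genes moved by -0.15. With plain library totals they were 24 higher and 4 lower, 85.7% higher against 67.4% of all called genes, and the median of all tested genes moved by 0.29. After removal of the trend of change with gene length they were 13 higher and 12 lower, 52.0% higher against 44.2% of all called genes, and the median of all tested genes moved by -0.29. On the log2 scale the median member lay 0.36 above the median of all tested genes with the main scaling, with the size factors of DESeq2 and with library totals. That gap was 0.27 with the length trend removed, 0.23 with limma-trend on log2(RPKM + 1), and between 0.25 (without library 1 of the label L4440) and 0.38 when 1 library was left out. It was 0.48 with a filter of 1 CPM, but 0.04 without a filter, where 23398 genes entered and their median rose to 0.44.

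**Figure D1:**
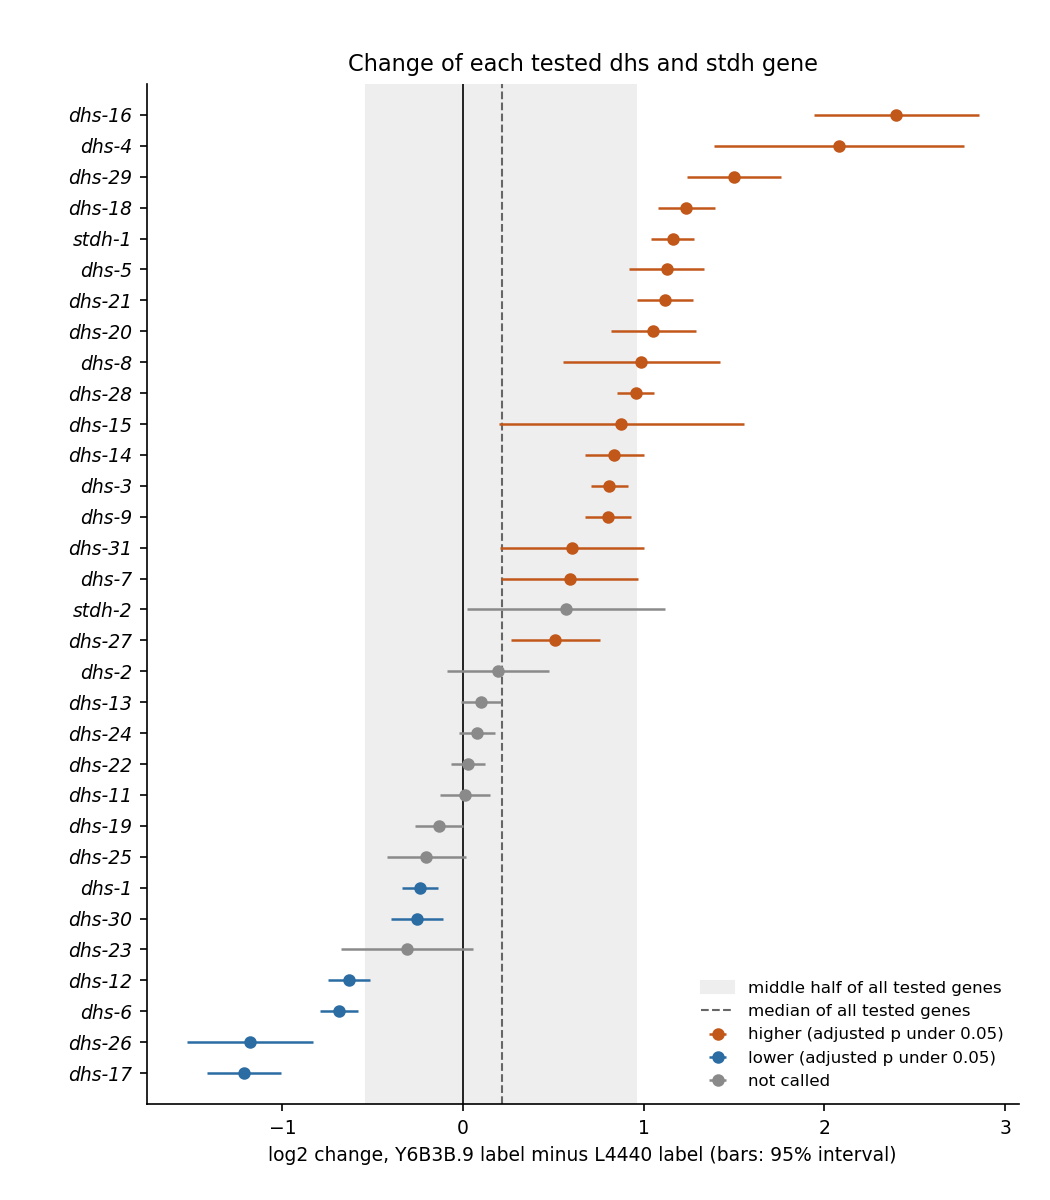
The log2 change of each tested member, libraries labelled Y6B3B.9 minus libraries labelled L4440 (horizontal axis), with its 95% interval from the edgeR fit; colour gives the call. The changes run from -1.21 for dhs-17 to 2.4 for dhs-16, and the dashed line and grey band give the median (0.22) and the quartiles (-0.54 and 0.96) of all tested genes.

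Among the members with a known place in sterol metabolism, dhs-16 had the largest rise. DHS-16 is known as a 3β-hydroxysteroid dehydrogenase in the synthesis of dafachronic acids, the steroid ligands of the nuclear receptor DAF-12. The gene (WBGene00000979) lies on the plus strand of chromosome V at 5983745 to 5985509 in build WBcel235. Its reads numbered 141, 114 and 71 with the label Y6B3B.9 but 16, 17 and 20 with the label L4440. As CPM (reads scaled to a common library total, here with TMM factors) these are 4.23, 3.54 and 2.79 against 0.641, 0.683 and 0.687. All 3 libraries labelled Y6B3B.9 lay well above all 3 labelled L4440, and the former varied more. The log2 change was 2.4 (SE 0.213, 95% interval 1.94 to 2.85, edgeR adjusted p = 7.95e-08), or 5.27-fold, and 97.1% of tested genes changed less upward or fell. The gene C10F3.7, on the other strand, shares 74 exon nucleotides with dhs-16 in the annotation but took 16 reads over the 6 libraries against 379 for dhs-16.

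Other genes of dafachronic acid synthesis and sterol handling moved both ways. Of 11 listed genes 9 were tested, with 5 higher (55.6%, against 46.4% of all tested genes) and 2 lower (22.2%, against 37.7%). The median log2 change was 0.27, against 0.22 for all tested genes. The higher genes were daf-12, the receptor (22.5 ± 0.700 against 12.8 ± 1.5 CPM, SD, n = 3 per label, log2 change 0.81), ncr-1 (0.95) and ncr-2 (0.72), homologues of the human cholesterol transporter NPC1, strm-1 (0.69), a sterol methyltransferase, and daf-36 (0.27), the Rieske oxygenase of the pathway. Of these 5, daf-36 was no longer called with the size factors of DESeq2 (0.12), in its Wald test, without a filter (0.17) or without library 2 of the label L4440 (0.18), and neither daf-36 (0.025) nor strm-1 (0.30) was called once the length trend was removed. The lower genes were din-1 (-0.59), a corepressor that binds DAF-12, and emb-8 (-0.37), which encodes cytochrome P450 reductase. The cytochrome P450 gene daf-9, which acts at the last step of the pathway, gave 0.08 (SE 0.255, edgeR adjusted p = 0.764) and was low, at 0.715 ± 0.125 against 0.678 ± 0.0991 CPM. The dehydrogenase gene hsd-2, which is also on the list of other named family genes, gave -0.61 (SE 0.293, edgeR adjusted p = 0.0709).

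The 4 stdh genes are named for steroid dehydrogenases and are related in sequence to let-767, which encodes a 3-ketoacyl-CoA reductase. They differed by orders of magnitude in level, and only stdh-1 was abundant. This gene (WBGene00007363, chromosome V, plus strand, 13906492 to 13908037) was at 105, 100.03 and 109.5 CPM in the libraries labelled Y6B3B.9 and at 45.1, 49.99 and 45.8 CPM in those labelled L4440. The lowest of the former was about 2 times the highest of the latter. The log2 change was 1.16 (SE 0.055, 95% interval 1.04 to 1.28, edgeR adjusted p = 1.08e-10), or 2.23-fold. Its neighbour stdh-3 (WBGene00007364, 13904611 to 13905996) lies 495 nucleotides upstream on the same strand and took 3, 0 and 0 reads against 2, 0 and 1, too few to test. On the same chromosome stdh-4 (WBGene00006435, 8549289 to 8551207) took 3, 2 and 5 reads against 1, 0 and 0 and was not tested either. The remaining gene stdh-2 (WBGene00008678, 16224327 to 16225655) took 34, 34 and 26 reads against 12, 16 and 27. Its CPM were 1.02, 1.06 and 1.02 against 0.480, 0.643 and 0.927, so the groups did not overlap. The log2 change of 0.57 (SE 0.255, 95% interval 0.02 to 1.12) had an edgeR adjusted p of 0.05003, just short of the threshold. Under the alternatives run, that adjusted p for stdh-2 ranged from 0.00262 to 0.525. The change was 0.89 (adjusted p = 0.0107) without library 3 of the label L4440 and 0.38 (adjusted p = 0.195) without library 1 of that label, both in the edgeR fit.

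The enzyme of peroxisomal β-oxidation among the members, DHS-28, carries out the 3-hydroxyacyl-CoA dehydrogenase step that shortens long fatty acids and the side chains of ascarosides, the worm's pheromones. Its gene (WBGene00000991, chromosome X, plus strand, 6818438 to 6820080) was at 125, 126 and 132 CPM with the label Y6B3B.9 and at 63.7, 66.1 and 67.8 CPM with the label L4440. The means were 128 ± 3.92 and 65.9 ± 2.07 CPM (SD, n = 3 per label), and replicates differed far less than the labels did. The log2 change was 0.96 (SE 0.0476, 95% interval 0.85 to 1.06, edgeR adjusted p = 1.72e-10), or 1.94-fold. The annotation places gei-15 on the other strand with 76 shared exon nucleotides, at 1020 reads in all against 16807 for dhs-28.

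Genes for the neighbouring steps of that pathway were higher as well. Of 15 listed and tested genes 11 were higher (73.3%, against 46.4% of all tested genes) and 3 lower (20.0%, against 37.7%). Their median log2 change was 0.80. The thiolase gene daf-22 was at 61.7 ± 4.61 against 30.7 ± 0.191 CPM (log2 change 1.01, SE 0.0612, edgeR adjusted p = 1.20e-09). The enoyl-CoA hydratase gene maoc-1 was at 69.2 ± 2.52 against 37.0 ± 0.559 CPM (log2 change 0.90, SE 0.0511, edgeR adjusted p = 5.80e-10). These genes act on either side of DHS-28 in each round of chain shortening. The acyl-CoA oxidase gene acox-3 (0.88) and the peroxisomal catalase gene ctl-2 (1.21) were also higher. The lower genes were prx-10 (-0.42), a peroxisome biogenesis gene, the oxidase gene acox-1.2 (-0.55) and the nuclear receptor gene nhr-49 (-0.15). Of these, acox-1.2 was not called with library totals (-0.25) or without library 1 (-0.48) or 3 (-0.62) of the label Y6B3B.9, and nhr-49 lost its call without library 3 of the label L4440 (-0.12) and turned to 0.14 with library totals.

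DHS-3 is a lipid droplet protein of the intestine that is used as a marker of those droplets. Its gene (WBGene00000967, chromosome I, minus strand, 8212362 to 8218324) was at 146, 148 and 155 CPM in the libraries labelled Y6B3B.9 and at 84.1, 88.1 and 83.8 CPM in those labelled L4440. The groups were far apart, with SDs of 4.71 and 2.42 CPM (n = 3 per label). The log2 change was 0.81 (SE 0.047, 95% interval 0.71 to 0.91, edgeR adjusted p = 7.55e-10), or 1.75-fold. The germline gene gla-3 overlaps it on the other strand without shared exon nucleotides, took 27939 reads, and had a log2 change of -1.08. The summed intestine markers given above were also higher with this label, and their part in the rise of dhs-3 was not tested.

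Most other genes of lipid droplets and triglyceride storage did not move as dhs-3 did. Of 11 tested genes 8 were lower (72.7%, against 37.7% of all tested genes) and 3 higher (27.3%, against 46.4%). Their median log2 change was -0.41. The lower genes included seip-1, the worm's seipin (27.7 ± 0.862 against 67.8 ± 3.22 CPM, log2 change -1.29), hosl-1 (-1.07), atgl-1, which encodes adipose triglyceride lipase (-0.81), and plin-1, the perilipin of the worm (-0.41). Also lower were acl-6 (-0.69) and lpin-1 (-0.52). The higher genes were dgat-2 (1.69), a diacylglycerol acyltransferase gene, acs-22 (1.28), a fatty acid transport protein homologue, and the low-level lipase gene lipl-4 (1.69). Among the lower genes fitm-2 (-0.34 to -0.052) and lid-1 (-0.32 to -0.028) were no longer called with library totals.

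DHS-21 is known as a dicarbonyl/L-xylulose reductase. The gene (WBGene00000984, chromosome V, minus strand, 12731767 to 12733645) was at 31.9, 34.9 and 37.4 CPM with the label Y6B3B.9 and at 16.2, 16.2 and 15.5 CPM with the label L4440. The libraries labelled L4440 were nearly equal and all below the others. The change was 1.12 on the log2 scale (SE 0.0721, edgeR adjusted p = 2.25e-09), or 2.17-fold. The gene R11D1.10, on the other strand, shares 28 exon nucleotides with dhs-21. It took 4103 reads against 4394 for dhs-21 and had a log2 change of -0.25.

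**Figure D2:**
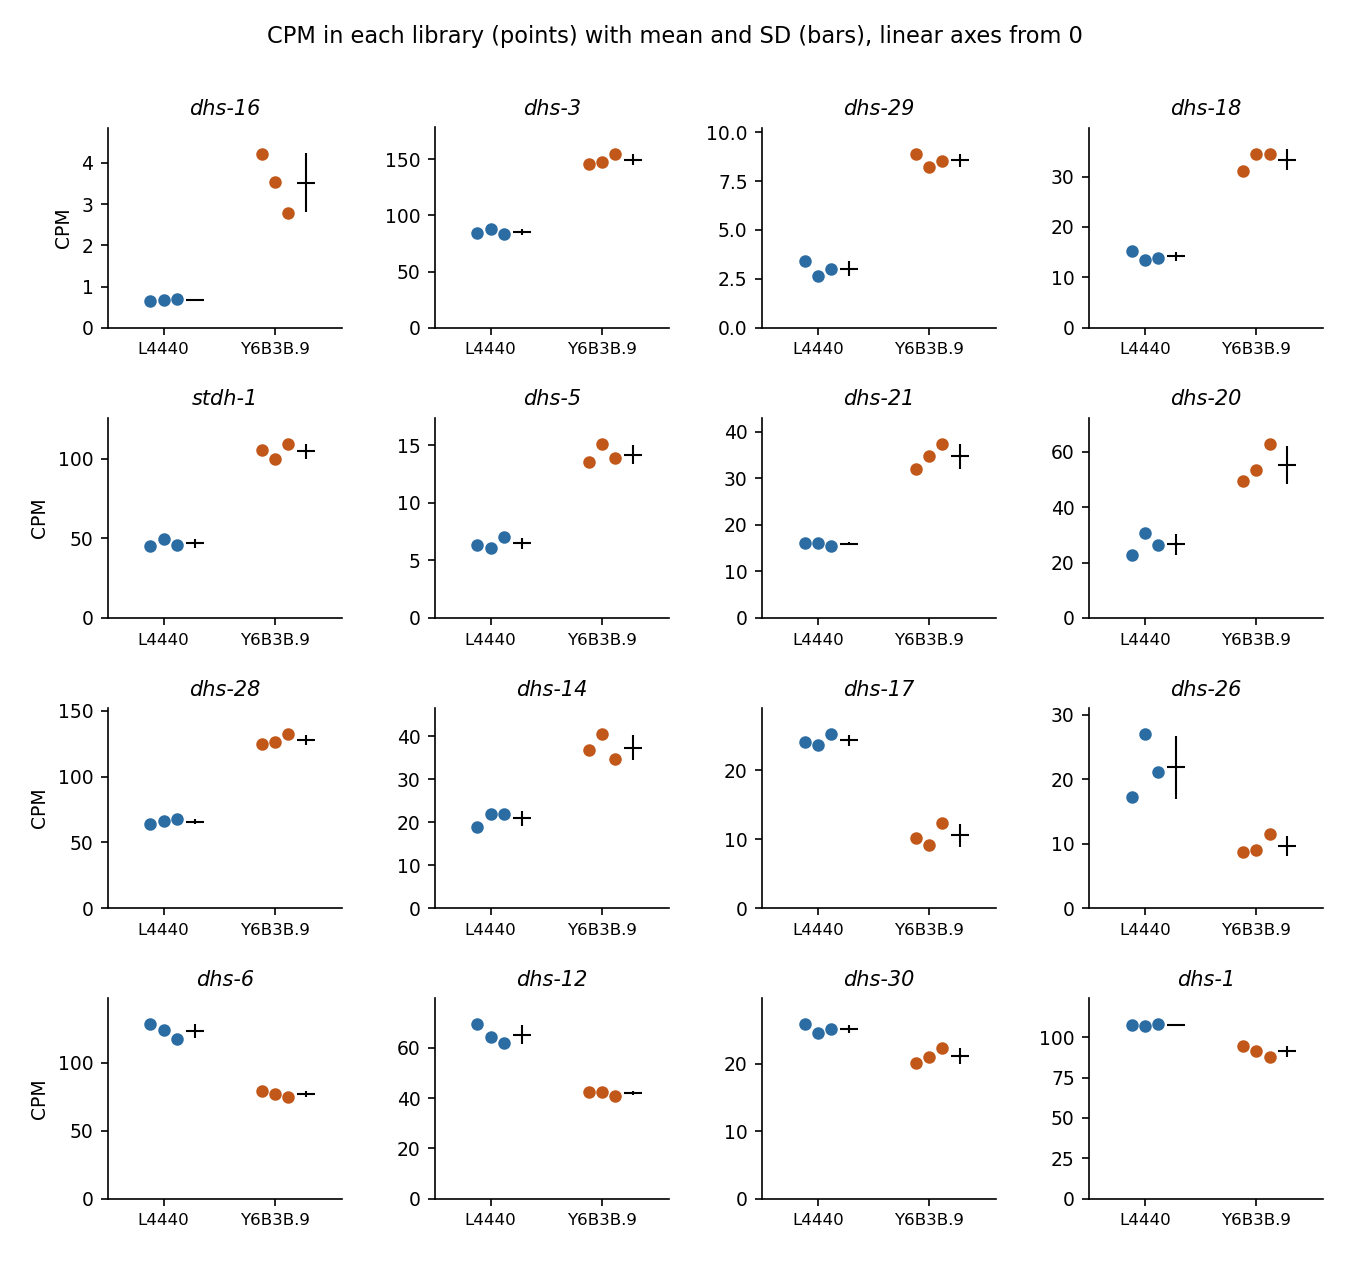
CPM of 10 higher and 6 lower members in each library (points, linear axes from 0, 1 panel per gene), with the mean and SD of the 3 libraries per label beside them (bars). In every panel the 3 points of one label lie apart from the 3 of the other, and dhs-16 and dhs-26 show the widest spread within a label for their level.

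The other members with large rises have no role stated here. dhs-29 (WBGene00000992, chromosome X, minus strand, 7661891 to 7664919) was at 8.91, 8.23 and 8.54 CPM against 3.40, 2.65 and 3.02 CPM. Every library labelled Y6B3B.9 was above 2 times every library labelled L4440, and the log2 change was 1.5 (SE 0.121, 95% interval 1.24 to 1.76, edgeR adjusted p = 2.60e-08). dhs-18 (WBGene00000981, chromosome V, minus strand, 11045705 to 11046833) was at 31.1, 34.5 and 34.6 CPM against 15.2, 13.5 and 13.8 CPM. Its groups were again well apart, with a change of 1.24 on the log2 scale (SE 0.0737, edgeR adjusted p = 1.00e-09). dhs-5 (WBGene00000969, chromosome II, plus strand, 5453847 to 5455977) was at 13.5, 15.1 and 13.9 CPM against 6.29, 6.07 and 7.04 CPM. It was about doubled, with a change of 1.13 on the log2 scale (SE 0.0969, edgeR adjusted p = 5.41e-08).

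dhs-20 (WBGene00000983, chromosome V, minus strand, 11602294 to 11604563) was at 49.4, 53.4 and 62.9 CPM with the label Y6B3B.9 and at 22.9, 30.6 and 26.3 CPM with the label L4440. Both groups were more spread than those of dhs-28, and they did not overlap (log2 change 1.05, SE 0.107, edgeR adjusted p = 2.11e-06). Its annotated exons share 82 nucleotides with idpp-16 on the same strand, which had a log2 change of 1.01. They share 65 with F35B12.9 on the other strand, which took 1660 reads against 7065 for dhs-20 and had a log2 change of 0.70. dhs-14 (WBGene00000977, chromosome V, minus strand, 2763981 to 2765200) was at 36.8, 40.5 and 34.7 CPM against 19, 21.9 and 21.9 CPM. On the log2 scale dhs-14 changed by 0.84 (SE 0.0756, edgeR adjusted p = 9.54e-08), or 1.79-fold. Its same-strand neighbour dhs-15, 3160 nucleotides away, took 76 reads against 36 over the 3 libraries of each label with a change of 0.87 on the log2 scale (SE 0.316, edgeR adjusted p = 0.0188). The values of dhs-15 overlapped between the labels, and its call was lost when library 3 of the label Y6B3B.9 or library 1 or 3 of the label L4440 was left out.

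The remaining higher members were dhs-4, dhs-8, dhs-9, dhs-31, dhs-7 and dhs-27. dhs-4 took 41, 31 and 22 reads against 5, 4 and 10, a log2 change of 2.08 whose 95% interval was wide, from 1.39 to 2.77. The reads of dhs-4 cannot be told apart from those of T05F1.9 on the other strand over 75 shared exon nucleotides, and that gene took more reads in all (181 against 113) and had a log2 change of 1.8. dhs-9, at 55.9 against 32.1 RPKM, was the most abundant of these 6 and had a log2 change of 0.80 (SE 0.0604). Log2 changes were 0.99 for dhs-8, 0.60 for dhs-31, 0.59 for dhs-7 and 0.51 for dhs-27, and the libraries of dhs-7 overlapped between the labels. Calls of dhs-7, dhs-31 and dhs-15 were lost in the Wald test of DESeq2, and those of dhs-7, dhs-31, dhs-27 and dhs-15 once the length trend was removed.

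The 6 lower members fell by less than 2-fold except dhs-17 and dhs-26. dhs-17 (WBGene00000980, chromosome V, minus strand, 6026329 to 6034814) was at 10.2, 9.14 and 12.4 CPM with the label Y6B3B.9 and at 24.1, 23.7 and 25.2 CPM with the label L4440. All 3 libraries of the former lay below the latter but varied more (coefficient of variation 15.5% against 3.24%). The log2 change was -1.21 (SE 0.0956, 95% interval -1.42 to -1.01, edgeR adjusted p = 2.10e-08). The gene picc-1 on the other strand shares 10 exon nucleotides with it, took 32844 reads against 2874 for dhs-17, and had a log2 change of -1.03. dhs-26 (WBGene00000989, chromosome X, minus strand, 3360722 to 3362493) was at 8.64, 8.95 and 11.5 CPM against 17.3, 27 and 21.2 CPM. Its libraries labelled L4440 varied widely but stayed above the others (log2 change -1.18, SE 0.158, edgeR adjusted p = 3.33e-05).

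dhs-6 (WBGene00000970, chromosome II, minus strand, 5617128 to 5619319) was at 79.2, 76.8 and 74.5 CPM with the label Y6B3B.9 and at 128, 124 and 118 CPM with the label L4440. This was a clean separation at a high level, with a change of -0.68 on the log2 scale (SE 0.049, edgeR adjusted p = 7.21e-09). dhs-12 (WBGene00000975, chromosome IV, plus strand, 10142455 to 10146225) was at 42.6, 42.6 and 41.0 CPM against 69.3, 64.4 and 62.1 CPM. On the log2 scale the change was -0.63 (SE 0.0545, edgeR adjusted p = 5.51e-08). The glutathione S-transferase gene gst-4 shares 65 exon nucleotides with dhs-12 on the same strand, and its log2 change was 0.41, opposite in sign.

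The falls of dhs-30 and dhs-1 were small and depended on the scaling. dhs-30 (WBGene00000993, chromosome X, minus strand, 17230725 to 17235838) was at 20.1, 21 and 22.4 CPM against 25.9, 24.6 and 25.2 CPM. On the log2 scale the change was -0.26 (SE 0.0667, edgeR adjusted p = 0.00256), which turned to 0.03 with library totals. dhs-1 (WBGene00000965, chromosome I, minus strand, 5278803 to 5281519) was at 94.8, 91.3 and 87.6 CPM against 108, 107 and 108 CPM. Its log2 change was -0.24 (SE 0.0463, edgeR adjusted p = 0.000231), which turned to 0.05 with library totals. The other 4 lower members were lower under every scaling tried (dhs-17, dhs-26, dhs-6 and dhs-12).

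The 9 tested members that were not called included the most abundant one. dhs-22 (WBGene00000985, chromosome V, minus strand, 14420071 to 14421440) was at 236, 234 and 238 CPM with the label Y6B3B.9 and at 237, 231 and 228 CPM with the label L4440. These libraries overlapped, and the log2 change was 0.03 with a narrow 95% interval of -0.07 to 0.12 (edgeR adjusted p = 0.574). The gene set-31, on the other strand, shares 74 exon nucleotides with dhs-22. It took 6394 reads against 39751 for dhs-22 and had a log2 change of -1.23. The result for dhs-22 depended on the scaling. dhs-22 was called higher with library totals (0.32, edgeR adjusted p = 1.88e-05) and with the filter of 1 CPM (0.12), and called lower with the size factors of DESeq2 (-0.12, edgeR adjusted p = 0.0234) and with the length trend removed (-0.32, edgeR adjusted p = 9.97e-06). dhs-13 (WBGene00000976, chromosome V, minus strand, 1765311 to 1771734) was at 115, 117 and 127 CPM against 109.9, 116 and 108 CPM, with a log2 change of 0.10 (95% interval -0.01 to 0.21). Without library 1 of the label Y6B3B.9 it was 0.13 and called (edgeR adjusted p = 0.0183), and without library 3 it was 0.06. It was also called higher with library totals (0.39) and called lower with the length trend removed (-0.21). dhs-19 (WBGene00000982, chromosome V, minus strand, 11489048 to 11490482) was at 31.7, 35.7 and 36.4 CPM against 38.6, 36.9 and 38.2 CPM. The groups of dhs-19 did not overlap, but its log2 change of -0.13 (95% interval -0.27 to 0.00, edgeR adjusted p = 0.0598) missed the threshold. With library totals it was called higher (0.16, edgeR adjusted p = 0.0305). It was called lower with the size factors of DESeq2 (-0.29, edgeR adjusted p = 0.000582) and with the length trend removed (-0.51, edgeR adjusted p = 2.75e-06). It was -0.17 and called without library 3 of the label Y6B3B.9 (edgeR adjusted p = 0.0232), and -0.07 without library 1. Log2 changes were 0.08 for dhs-24, 0.01 for dhs-11, -0.20 for dhs-25 and, with wider intervals, 0.19 for dhs-2 (-0.09 to 0.48) and -0.31 for dhs-23 (-0.67 to 0.06). The interval of dhs-11 ran from -0.13 to 0.15. dhs-2 was 0.35 and called without library 2 of the label L4440 (edgeR adjusted p = 0.0127), 0.08 without library 1 of that label, 0.09 without library 3 of the label Y6B3B.9, and called with library totals (0.48). dhs-25 was -0.26 and called without library 3 of the label L4440 (edgeR adjusted p = 0.0475) and -0.13 without library 2. With library totals dhs-24 (0.37) and dhs-11 (0.30) were called higher, and with the length trend removed dhs-11 (-0.41) was called lower. With the size factors of DESeq2 dhs-25 (-0.35, edgeR adjusted p = 0.00481) and dhs-23 (-0.46, edgeR adjusted p = 0.0222) were called lower.

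**Figure D3:**
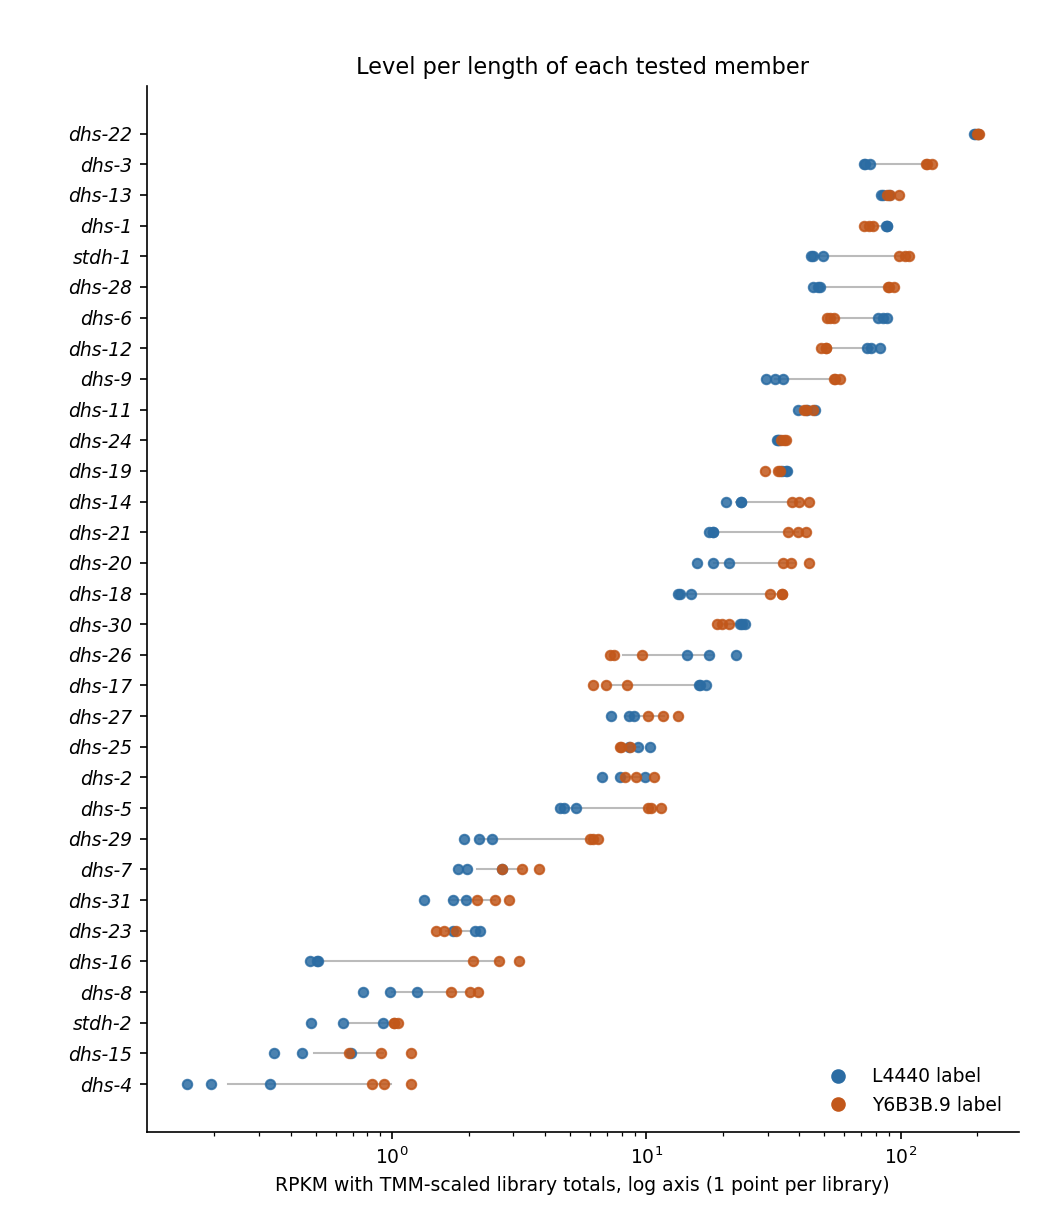
Level of each tested member per transcript length in each library (points, RPKM with TMM-scaled library totals, log axis), coloured by label and ordered by mean; lines join the label means. The label means span from 0.227 RPKM for dhs-4 with the label L4440 to 201 RPKM for dhs-22 with the label Y6B3B.9.

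Levels between genes were compared as RPKM, which divides reads by gene length and library total, computed from the counts with the gene lengths that the authors' own RPKM imply. With the label L4440 the highest members were dhs-22 (198 ± 3.76 RPKM, SD, n = 3), dhs-1 (88.4 ± 0.307), dhs-13 (86.3 ± 3.22), dhs-6 (85.1 ± 3.64) and dhs-12 (77.8 ± 4.41). Of these dhs-1, dhs-13 and dhs-6 lay within the spread of their neighbours in that order. With the label Y6B3B.9 the highest were dhs-22 (201 ± 1.77 RPKM), dhs-3 (129 ± 4.05), stdh-1 (103.6 ± 4.69), dhs-13 (92.6 ± 5.14) and dhs-28 (91.2 ± 2.79). The last 2 of these overlapped within their SDs. By mean RPKM dhs-3 stood at rank 6 with the label L4440 and rank 2 with the label Y6B3B.9, stdh-1 at rank 8 and rank 3, and dhs-6 at rank 4 and rank 8. Replicate variation of the members' CPM had a median coefficient of variation of 5.95% with the label Y6B3B.9 and 7.58% with the label L4440.

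Shares of the members' summed RPKM do not depend on how libraries are scaled. They are parts of a whole, however, so a rise of some members lowers the shares of others. dhs-3 made up 10.6% ± 0.103 of the summed RPKM with the label Y6B3B.9 and 7.21% ± 0.135 with the label L4440 (SD, n = 3 per label). stdh-1 made up 8.57% ± 0.306 with Y6B3B.9 and 4.55% ± 0.216 with L4440. dhs-28 made up 7.55% ± 0.0679 with Y6B3B.9 and 4.62% ± 0.199 with L4440. Each of these 3 took a larger part of the total in every library labelled Y6B3B.9. In the other direction, dhs-6 made up 4.38% ± 0.226 against 8.36% ± 0.270, dhs-12 4.15% ± 0.179 against 7.64% ± 0.385, dhs-1 6.19% ± 0.376 against 8.68% ± 0.164, and dhs-22 16.7% ± 0.259 against 19.4% ± 0.324. By this measure 13 tested members had a higher share in all libraries labelled Y6B3B.9, 13 a lower share in all of them, and 6 overlapped. That split is partly set by the measure, and a lower share need not be a lower level. The lower share of dhs-22 went with a nearly equal mean level (236 against 232 CPM). All members together took 0.157% ± 0.0029 of the reads with the label Y6B3B.9 and 0.109% ± 0.0010 with the label L4440, and 1424 ± 32.7 against 1210.5 ± 19.4 CPM after TMM scaling.

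Level and chromosome gave different backgrounds for the members. The 8 members under a mean of 5 CPM were 6 higher, 0 lower and 2 not called, while 67.0% of all genes under that level were higher and 9.00% lower. The 24 members of 5 CPM or more were 11 higher (45.8%) and 6 lower (25%), with a median log2 change of 0.15. Of all genes at that level 33.9% were higher and 55.2% lower, with a median of -0.25. Chromosome V holds 16 of the 34 members, and 7 of its 14 tested members were higher and 1 lower, with a median log2 change of 0.70. All tested genes on chromosome V had a median of 0.55, with 55.1% higher and 28.2% lower. On chromosome X the 6 members were 3 higher and 2 lower, with a median of 0.15. All tested genes on X had a median of 0.61, with 60.0% higher and 23.4% lower. The members' median also lay below that of all genes on chromosome IV, but above it on chromosomes I, II and III. Change also went with length over all genes, where the fitted log2 change fell from 0.61 at 570 nucleotides to -0.165 at 3011. The members span 839 to 1939 nucleotides, and all genes in that range had a median log2 change of 0.24.

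Short-chain dehydrogenases known by other names were called higher and lower in shares near those of all tested genes. Of 18 listed genes 12 were tested, with 5 higher (41.7%, against 46.4% of all tested genes) and 4 lower (33.3%, against 37.7%). Their median log2 change was -0.02, which turned to 0.27 with library totals. The higher genes were bre-1 (1.25), a GDP-mannose dehydratase gene, dhrs-4 (1.02), fasn-1 (0.67), the fatty acid synthase, ger-1 (0.40), and gmd-2 (2.50), which stood at 0.443 against 0.0782 CPM. Of these ger-1 was not called once the length trend was removed (0.020). The lower genes were sqv-1 (-0.45), ard-1 (-0.35), gale-1 (-0.23) and let-767 (-0.21). With library totals sqv-1 alone among these 4 was still called lower, ard-1 (-0.059) was not called, and gale-1 (0.058) and let-767 (0.076) changed sign. let-767 itself, at 174 ± 2.14 against 202 ± 4.20 CPM, moved little beside its relative stdh-1.

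Other enzyme families that act on small molecules were counted in the same way, beside 46.4% higher and 37.7% lower over all tested genes. The cytochrome P450 (cyp) genes had 42 of 63 tested members higher (66.7%) and 11 lower (17.5%), with a median log2 change of 0.68. The UDP-glucuronosyltransferase (ugt) genes had 40 of 59 higher (67.8%) and 6 lower (10.2%), with a median of 0.65. The glutathione S-transferase (gst) genes had 29 of 34 higher (85.3%) and 2 lower (5.88%), with a median of 0.84. The medians of these 3 families and of the dhs and stdh genes all lay above that of all tested genes. The aldehyde dehydrogenase (alh) genes had 2 of 12 higher and 3 lower (-0.04). No test compared these families with each other.

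Genes of fatty acid synthesis and elongation supply substrates to several of these enzymes. Of 22 tested, 16 were higher (72.7%, against 46.4% of all tested genes) and 3 lower (13.6%, against 37.7%). Their median log2 change was 0.31. The genes with the smallest p were fat-6 (879 ± 47.9 against 399 ± 6.21 CPM, log2 change 1.14), a stearoyl-CoA desaturase, acs-1 (0.83), an acyl-CoA synthetase of branched-chain fat synthesis, elo-5 (0.77), an elongase of the same pathway, and fat-3 (0.88), a desaturase of polyunsaturated fats. With the size factors of DESeq2 this list had 12 higher and 5 lower, where all tested genes had 5884 higher and 5953 lower. The lower genes were mecr-1 (-0.46), elo-3 (-0.24) and let-767. With library totals elo-3 turned to 0.05, and with the length trend removed elo-1, elo-2 and elo-6 turned from higher to lower. The regulators of intestine and fat metabolism were 10 higher (55.6%) and 8 lower (44.4%) of 18, against 46.4% and 37.7% of all tested genes. Those with the smallest p were nhr-66 (-0.88), nhr-23 (-1.08), pqm-1 (1.1) and nhr-13 (-1.33).

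**Figure D4:**
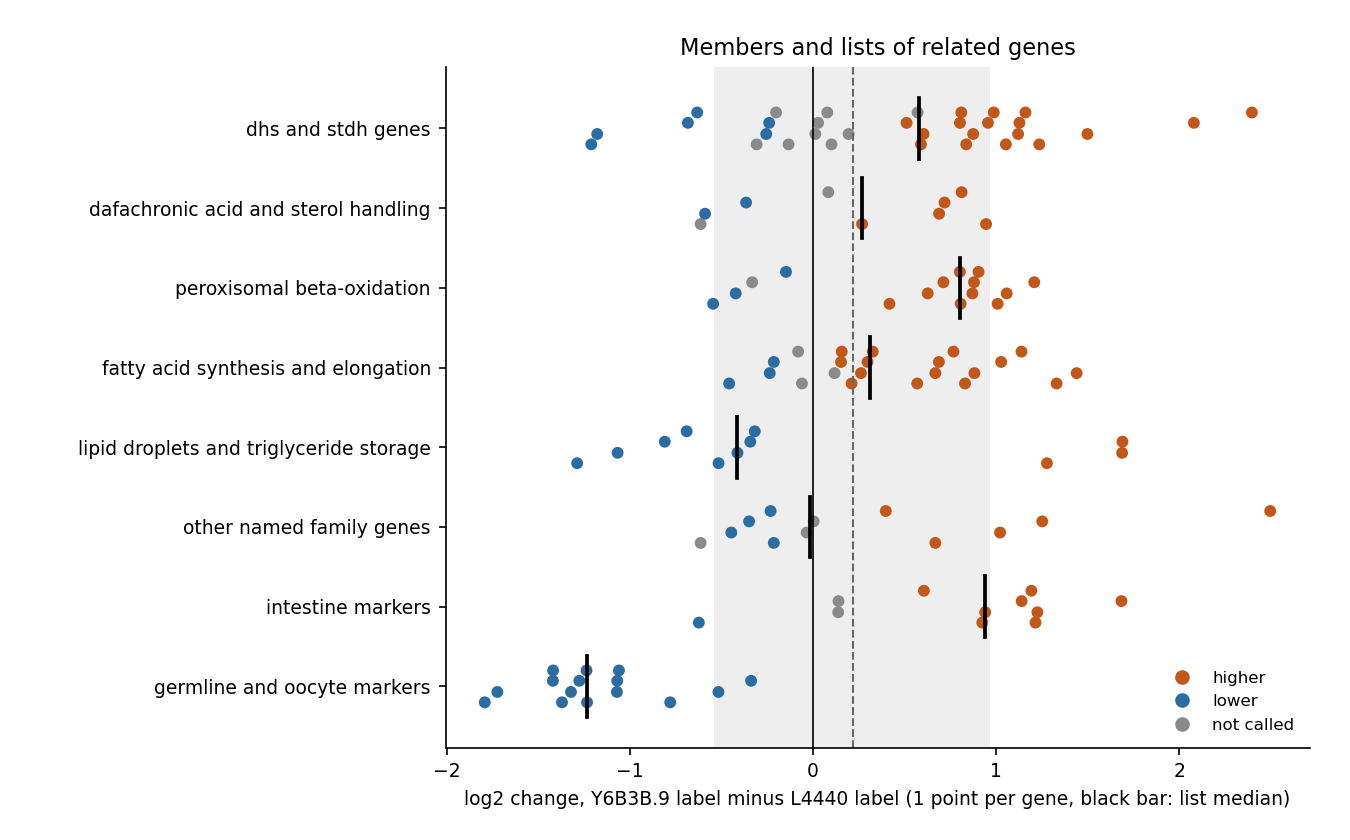
Log2 change of each tested gene (points, libraries labelled Y6B3B.9 minus libraries labelled L4440) for the dhs and stdh genes and for lists of related genes and markers, with each list's median (black bar) and the median and quartiles of all tested genes (dashed line and grey band). The germline and oocyte markers all lie below 0 (median -1.24), while the medians of the dhs and stdh genes (0.58), peroxisomal β-oxidation (0.80) and intestine markers (0.94) lie to the right of the dashed line.

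Tissue markers by name were as follows, where 46.4% of all tested genes were higher and 37.7% lower. Among intestine markers cpr-3 (1.68), ges-1 (1.19), act-5 (0.92) and asp-6 (0.94) had the smallest p, and pept-1 was the lower one (-0.62). Germline and oocyte markers ranged from -1.79 for car-1 to -0.34 for him-3, with glh-2 at -1.72, rme-2 at -1.42 and htp-3 at -1.28, and him-3 was not called with library totals (-0.048). Hypodermis markers were 8 of 10 higher, with sqt-3 at 1.97 and dpy-7 at 2.99, and the lower ones were nhr-23 and lin-26 (-0.55), although their summed level was 275 to 282 CPM against 328 to 340 CPM. Of 8 body muscle markers pat-10 (0.85), act-4 (0.96) and unc-27 (0.62) were higher and myo-3 (-0.32) was lower, and myo-3 was not called with library totals (-0.033). Muscle markers summed to 1271 to 1410 CPM against 819 to 1026 CPM. Of 8 neuron markers unc-64 (1.21), egl-21 (0.84), rab-3 (1.03), egl-3 (0.51) and unc-13 (0.64) were higher and unc-119 (-0.36) and unc-104 (-0.20) lower. Neuron markers summed to 372 to 407 CPM against 304 to 321 CPM. With library totals unc-119 (-0.068) was not called and unc-104 turned to 0.09. The call of unc-104 was also lost without library 3 of the label Y6B3B.9 (-0.12) and without any 1 library of the label L4440 (-0.22 to -0.15), and the part of these tissues in the members' changes was not tested.

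**Figure D5:**
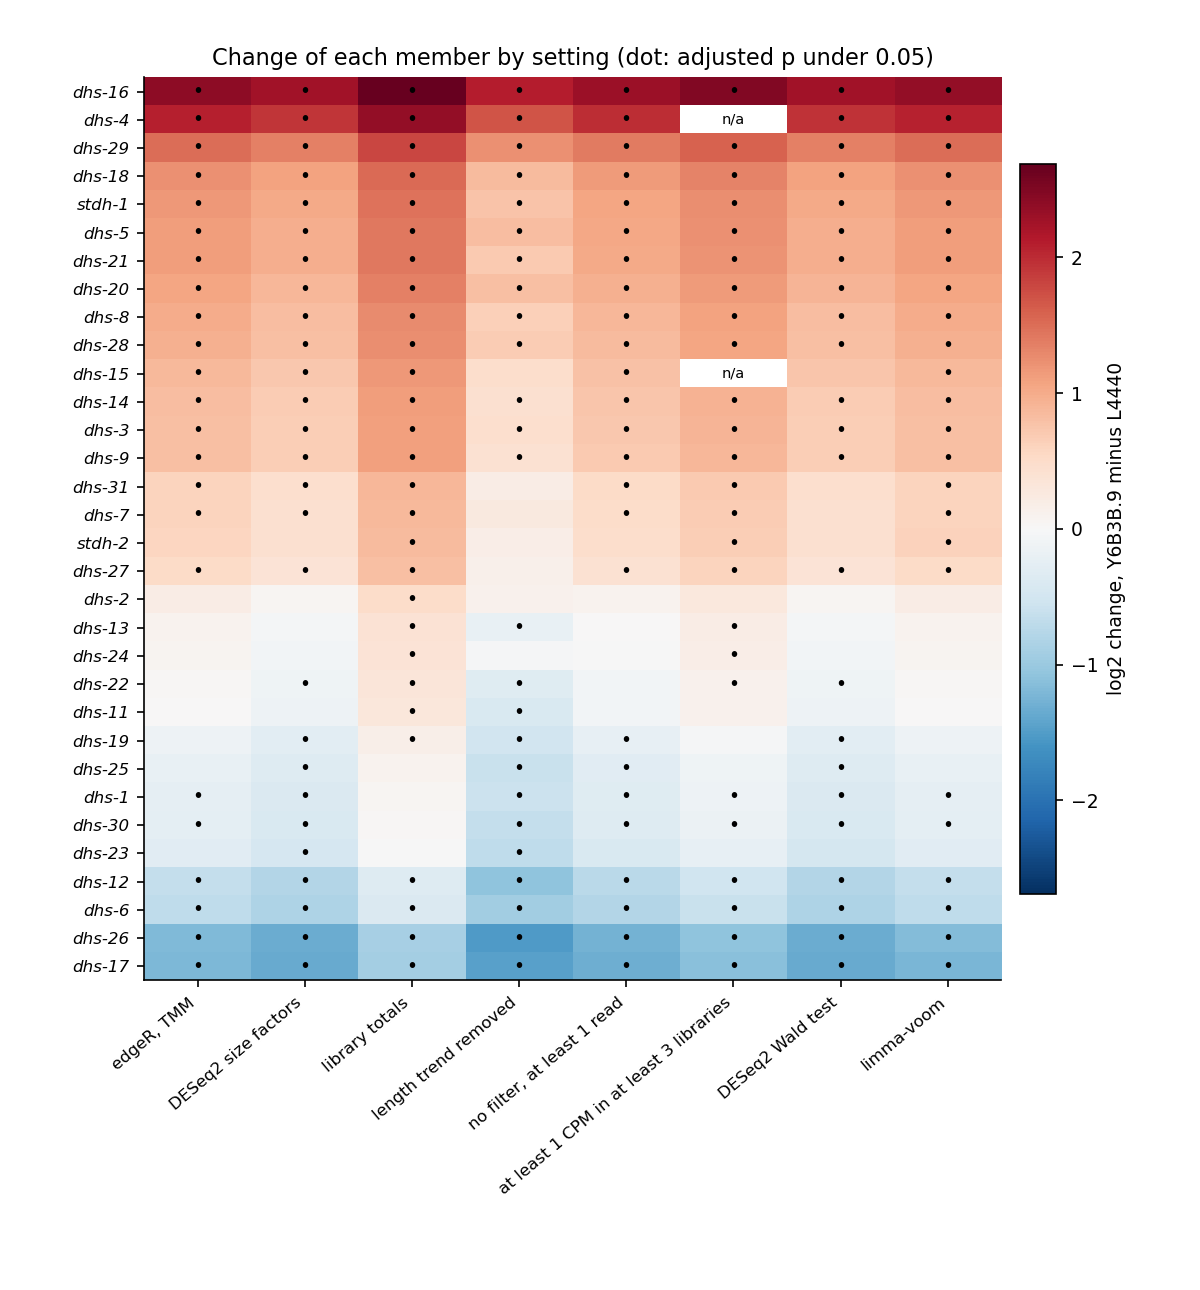
Log2 change of each tested member (colour) under the main settings and 7 others (1 column each), with a dot where the adjusted p is under 0.05 and n/a where the filter left the gene out. Members at the top and bottom keep their colour across columns, while those from dhs-13 to dhs-23 change sign or call with the scaling. The calls of dhs-15, dhs-31, dhs-7, stdh-2, dhs-27 and dhs-2 also change in some columns.

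The calls of 17 members were the same in direction and side of the threshold under all alternatives in which they were tested. They were 13 of the higher members (dhs-16, dhs-4, dhs-29, dhs-18, stdh-1, dhs-5, dhs-21, dhs-20, dhs-8, dhs-28, dhs-14, dhs-3 and dhs-9) and 4 of the lower ones (dhs-17, dhs-26, dhs-6 and dhs-12). In the annotation used here 17 members overlap a gene on the other strand. Strand was not recorded by the kit used for these libraries, and where exons of such a pair meet their reads cannot be told apart.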

How the data were processed

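The authors deposited, for 46748 features in 6 libraries, raw read counts in whole numbers, and RPKM values of the same features. Per the submitters' processing notes, the tools were STAR 2.4.1d, featureCounts 1.4.6-p4 and bcl2fastq 1.8.4, with build WBcel235. Not given in the sources used here are the strand setting, the annotation release and the options. Library preparation followed TruSeq RNA v2, a kit that keeps no strand information, per the labels' protocols.

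In the RPKM values that the authors deposited, library totals were recycled down the table: among 4330 genes whose count reached 1000 in every library, the implied length matched within 0.1% for 4330 under recycled totals and for 0 under own totals. The deposited RPKM therefore served only for gene lengths (genes with at least 100 reads; otherwise the annotated exon union). Implied lengths differ from the exon union for dhs-2 and dhs-12, whose RPKM are the less certain for it. RPKM printed here were computed from counts with TMM-scaled totals.

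The test of the counts used edgeR 4.0.16 under R 4.3.3: filterByExpr, TMM factors, glmQLFit and glmQLFTest with robust=TRUE, and Benjamini-Hochberg adjustment over 14265 genes at 0.05. Standard errors were taken from the F statistic. All changes are Y6B3B.9 minus L4440. The method was tested on simulated data. The perturbation label gave each library its group, and replicate numbers follow accession order only. CPM use TMM-scaled totals, and counting limits cover counting error only.

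Alternatives were the size factors and the Wald test of DESeq2 1.42.0, library totals, no filter beyond 1 read, a filter of 1 CPM in 3 libraries, omission of 1 library at a time, limma-voom, limma-trend on log2(RPKM + 0.1) or log2(RPKM + 1) with own totals (both limma 3.58.1), and removal of a loess trend of change on gene length through offsets.

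The members and the 11 lists of related genes and markers were chosen with earlier results of these data known. Values in every library are given for the 8 largest rises and 8 largest falls (6 were found) among called members with no overlap and a mean of at least 5 CPM, for the 5 members highest in RPKM, and for dhs-3, dhs-16, dhs-19, dhs-21, dhs-28 and stdh-1 to stdh-4. From each list, up to 4 genes with the smallest p and every gene on a side with 5 or fewer are named. Some further genes are named outside that rule, among them hosl-1 and plin-1. The listed symbols wwox-1, kdsr-1, acox-2, mogt-1 and opt-2 matched no feature and are not analysed here. Figures were drawn with matplotlib 3.10.9.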

Additional observations from a re-analysis of the deposited data

How the results depend on the processing

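Over 15 alternatives to the edgeR fit, the count of members called higher stayed within 1.5 times its main value of 17. Members called lower, 6 in the main fit, were 10 with the size factors of DESeq2, 9 in its Wald test, 12 after removal of the length trend and 4 with library totals. Under the same settings all genes called lower, 5380 in the main fit, were 5953, 5805, 6440 and 3973. The members' median log2 change, 0.58 in the main fit, was 0.43 with the size factors of DESeq2, 0.44 in its Wald test, 0.87 with library totals, 0.48 without a filter and 0.63 with the 1 CPM filter. It was 0.19 after removal of the length trend, 0.84 with limma-trend on log2(RPKM + 0.1) and 0.54 on log2(RPKM + 1), and it lay between 0.46 and 0.60 when 1 library was left out. Of 478 comparisons of a member with its main result, 401 kept direction and side of the threshold and 29 changed sign. With the sign kept, 10 lost the call and 38 gained one. The 29 also hold lost and gained calls. With library totals dhs-1 lost its call (edgeR adjusted p = 0.331) and dhs-19 gained one (edgeR adjusted p = 0.0305).

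The sign changes were in members with small changes in the main fit, and some of these were called in opposite directions. dhs-19 was called higher with library totals (0.156) but lower with the size factors of DESeq2 (-0.285). dhs-11 was called higher with library totals (0.303) but lower with the length trend removed (-0.412). dhs-22 and dhs-13 were also called in both directions, as given above. With library totals, log2(RPKM + 0.1) and log2(RPKM + 1) in turn, dhs-1 gave 0.0509, 0.0486 and 0.0481, dhs-19 0.156, 0.155 and 0.151, dhs-25 0.0886, 0.0900 and 0.0814, and dhs-30 0.0344, 0.0349 and 0.0336. With the size factors of DESeq2, its Wald test and the length trend removed, dhs-13 gave -0.0503, -0.0502 and -0.205. Under those 3 and without a filter, dhs-11 gave -0.139, -0.139, -0.41 and -0.083, dhs-22 -0.124, -0.124, -0.32 and -0.068, and dhs-24 -0.0734, -0.0734, -0.0313 and -0.0176. Leaving out 1 library gave -0.0335 to 0.0669 for dhs-11. The median of the other named family genes (-0.02) became 0.275 with library totals, 0.0800 with the 1 CPM filter, 0.28 and 0.27 on the RPKM scales, and lay between -0.057 and 0.022 without 1 library. That of muscle markers became -0.0151 and -0.0126 with the size factors and Wald test of DESeq2. The cause of these changes was not tested, beyond the shifts in the median of all genes given above.

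No paired analysis was possible because the labels give the libraries no shared replicate numbers. Members with few reads are limited by depth: stdh-3 and stdh-4 took 6 and 11 reads in all and were not tested, and dhs-15 and stdh-2 lie near the threshold.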
